A study of Mus musculus with 6 samples.

Results

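The transcripts described here encode 10 enzymes that hydroxylate and crosslink collagen. They are the lysyl oxidase (LOX) genes Lox, Loxl1, Loxl2, Loxl3 and Loxl4, the lysyl hydroxylase (PLOD) genes Plod1, Plod2 and Plod3, and the prolyl 4-hydroxylase alpha subunit (P4HA) genes P4ha1 and P4ha2. They were chosen by gene name, and all 10 were found among the 55421 genes of the count table and passed its filter on low counts. Gene positions are given on GRCm38 (GENCODE M21). RNA-seq had been performed on day 4 of in vitro differentiation in 2 stable lines derived from C2C12, mouse myoblasts that form myotubes once serum is withdrawn. Both lines carried a GFP transgene with expanded CUG repeats (CUG200 in the labels), a cell model of myotonic dystrophy type 1 (DM1). The control line also carried the empty vector and the other line a plasmid for miR-322/-503 overexpression, with 3 libraries in each group. Each group was a separate drug-selected line, so differences between the lines and the work of the microRNAs cannot be told apart.

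Collagen chains are modified in the endoplasmic reticulum before they fold. Prolyl 4-hydroxylase, made of an alpha subunit and the protein disulfide isomerase P4hb, hydroxylates prolines and thereby stabilizes the triple helix. Lysyl hydroxylases act on lysines, and Plod2 is known as the enzyme of the telopeptide lysines from which hydroxylysine-type crosslinks are made. Outside the cell, the copper-dependent lysyl oxidases convert lysines and hydroxylysines to aldehydes that then form covalent crosslinks in collagen and elastin.

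All 5 LOX genes and 2 of the 3 PLOD genes were lower with miR-322/-503 overexpression, while neither P4ha1 nor P4ha2 passed the test. P4ha3, an alpha subunit gene outside the 10, was lower (log2 fold change -1.51, adjusted p = 6.34e-06 from edgeR). With edgeR (quasi-likelihood test, adjusted p-value below 0.05), 7 of the 10 genes were lower and 0 were higher. Among all 18140 tested genes, 15.5% were lower and 13.2% were higher by the same rule, 28.8% together. Before adjustment (p below 0.05) 8 genes were lower and 1 was higher, and DESeq2 and limma also called 7 lower and 0 higher. The shares of all tested genes without adjustment, or by DESeq2 and limma, were not counted. The median log2 fold change of the 10 genes was -0.81, against -0.01 for all tested genes. With the added limit of a log2 fold change below -1, which 5.29% of tested genes met, 3 genes were left, namely Lox, Loxl4 and Plod1. None was above 1, as 4.59% of tested genes were. The libraries of the groups did not overlap for 8 of the 10 genes, each lower with miR-322/-503, against 23.5% of tested genes apart in this direction and 21.6% in the other. Fewer cells of a type and less RNA per cell cannot be told apart in bulk libraries. The 10 genes were well covered, with at least 1613 estimated counts in every library, and libraries of 73532084 to 92157388 estimated counts.

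**Figure D1:**
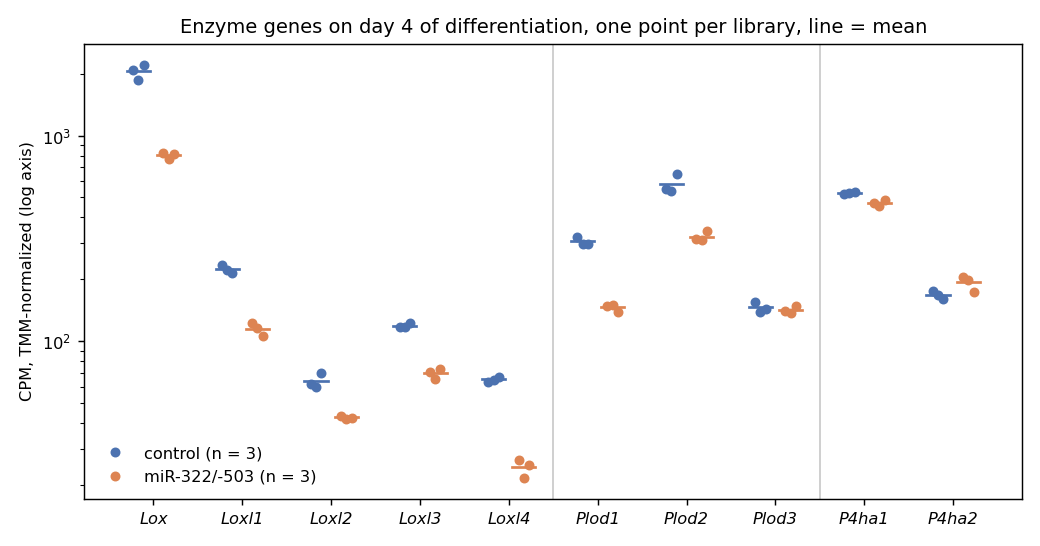
Normalized level of the 10 enzyme genes in each library, in CPM (counts scaled to the normalized library total) on a log axis. Blue points are the 3 control libraries, orange points the 3 miR-322/-503 libraries and short lines the group means. The groups lie apart for the 5 LOX genes, Plod1, Plod2 and P4ha1, and overlap for Plod3 and P4ha2.

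The overexpressed microRNAs are shown first because their seeds, the bases that pair with a target, are nearly shared. The mature sequences were taken from RefSeq (GRCm38.p6), with the seed (bases 2 to 8) in capitals. miR-322-5p lies on the minus strand at chrX:53054306-53054327 and miR-503-5p at chrX:53054027-53054049.
miR-322-5p: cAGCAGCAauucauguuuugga
miR-503-5p: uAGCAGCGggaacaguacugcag
The counts of both microRNA genes were too low to follow them here. The 3 control libraries held 1, 7 and 2 estimated counts of Mir322 and the overexpressing ones 17, 0 and 3. For Mir503 these values were 1, 1 and 2, then 6, 4 and 5.

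The longest annotated 3′UTR of each enzyme gene (GENCODE M21, GRCm38) was searched on the sense strand for TGCTGCT, the match to the miR-322-5p seed, for CGCTGCT, the match to the miR-503-5p seed, and for GCTGCT, the 6 bases that both contain. TGCTGCT occurred in Loxl2 and P4ha1, that is in 2 of the 10 genes, and in 24.4% of the 13412 tested genes with a 3′UTR of at least 50 bases. CGCTGCT occurred in Lox, 710 bases into its 3′UTR of 3160 bases, and in 4.87% of these genes. GCTGCT, inside a 7-base match or alone, occurred in Lox, Loxl1, Loxl2, Loxl4 and P4ha1, that is in 5 of the 10 genes, and in 45.2% of all these genes. In Loxl1 and Loxl4 it stood without a 7-base match. Loxl3, Plod1, Plod2, Plod3 and P4ha2 held none of these letters in this window. The sites outside Lox are printed with the matching bases in capitals and the neighbouring bases in lower case, so that they can be read against the seeds. The 7-base site of Loxl2 is at chr14:69694023-69694029 and its second, 6-base site at chr14:69693996-69694001, both on the plus strand. The P4ha1 site is at chr10:59371491-59371497 on the plus strand, and the Loxl1 site at chr9:58288498-58288503 and the Loxl4 site at chr19:42595210-42595215 are on the minus strand.
Loxl2 (7 bases): ttacccttctcTGCTGCTctaaacctgt
Loxl2 (6 bases): tatcggttgtaGCTGCTttctgagcac
P4ha1: agacgccagtgTGCTGCTcttccgatgt
Loxl1: gttgaagggtaGCTGCTggacggccag
Loxl4: agcaccaagaaGCTGCTcaggaggcct
Of the genes with a 7-base match, Lox and Loxl2 were lower and P4ha1 did not pass the test. Over all genes, the median log2 fold change was 0.01 with TGCTGCT and -0.02 without it, and genes with the match had longer 3′UTRs (median 2282 against 921 bases).

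Lox, the founding lysyl oxidase and the most abundant of the enzyme transcripts, was at 2097, 1869 and 2215 CPM in the control libraries and at 825, 767 and 816 CPM with miR-322/-503. Every miR-322/-503 library was thus far under every control library. Lox (ENSMUSG00000024529, chr18:52516067-52529867) fell from 2060 ± 176 to 803 ± 31.3 CPM (SD, n = 3), or 2.57-fold. On the log2 scale the change was -1.36 ± 0.07 (SE), with an adjusted p of 1.64e-05 from edgeR. Of all tested genes, 5.14% had a lower log2 fold change.

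Loxl4 (ENSMUSG00000025185, chr19:42593982-42612813), a member with scavenger receptor domains, had the largest relative fall of the 10 genes. Its values were 63.4, 64.8 and 67.0 CPM in the control and 26.4, 21.5 and 24.9 CPM in the miR-322/-503 libraries. This was a 2.68-fold fall, or -1.42 ± 0.09 (SE) on the log2 scale, with an adjusted p of 2.89e-05 from edgeR. The unadjusted 95% intervals of Lox (-1.53 to -1.19) and Loxl4 (-1.63 to -1.22) overlapped over most of their length.

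Loxl1 (ENSMUSG00000032334, chr9:58287738-58313186), known for its part in elastic fibre maintenance, was at 234, 222 and 214 CPM in the control and at 122, 116 and 106 CPM with miR-322/-503. It changed by -0.96 ± 0.07 (log2, SE), with an adjusted p of 7.56e-05 from edgeR. The 1014 tested genes of its chromosome, 9, had a median of -0.27 on the same scale, and the 604 of chromosome 19, where Loxl4 lies, had one of 0.14. For the chromosomes of Lox, Loxl2 and Loxl3 the median was within 0.1 of that of all autosomes.

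Loxl3 and Loxl2, which also carry scavenger receptor domains, fell least in the family. Loxl3 (ENSMUSG00000000693, chr6:83034173-83052562) was at 117, 117 and 123 CPM in the control and at 70.7, 65.6 and 73.3 CPM with miR-322/-503, which edgeR gave as -0.77 ± 0.06 (log2, SE; adjusted p = 9.03e-05). Loxl2 (ENSMUSG00000034205, chr14:69609068-69695834) was at 61.8, 59.9 and 69.9 CPM against 43.2, 41.9 and 42.4 CPM, or -0.59 ± 0.07 (log2, SE) with an adjusted p of 0.00083 from edgeR. For both, each miR-322/-503 library was under each control library. Loxl3 shares 535 of its 4603 exon bases with Htra2 on the opposite strand, and the strand setting of the counting is not given in the sources used here. Htra2 had 1054 to 1854 estimated counts per library and Loxl3 4919 to 10353. Loxl2 shares 301 of 5405 exon bases with Gm27177 (38 to 143 counts) and Lox 30 of 4778 with Gm41724 (310 to 517 counts).

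**Figure D2:**
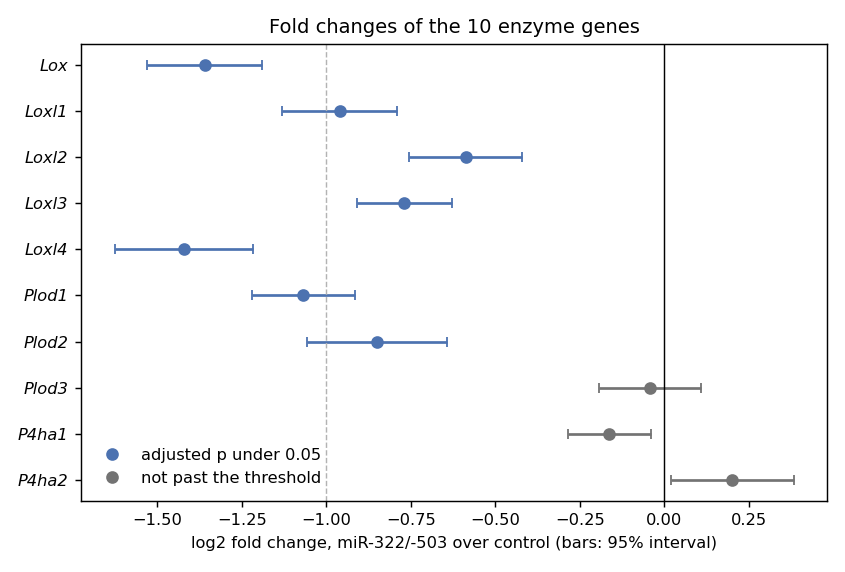
Log2 fold change of the 10 enzyme genes, miR-322/-503 over control, from edgeR, with unadjusted 95% intervals. Blue points passed an adjusted p-value of 0.05 and grey points did not, and the dashed line marks a log2 fold change of -1. The 7 blue points lie between -1.42 and -0.59, and the 3 grey points between -0.16 and 0.20.

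Among the lysyl hydroxylases, Plod1 and Plod2 fell and Plod3 did not pass the test. Plod1 (ENSMUSG00000019055, chr4:147909753-147936767), which acts mainly on lysines of the helical part of collagen, was at 322.3, 297.1 and 297.4 CPM in the control and at 148, 150 and 139 CPM in the miR-322/-503 libraries. All miR-322/-503 libraries were far under the control range. By edgeR Plod1 changed by -1.07 ± 0.06 (log2, SE; adjusted p = 2.78e-05), or 2.10-fold lower, and the 1046 tested genes of chromosome 4, where it lies, had a median of -0.19.

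Plod2 (ENSMUSG00000032374, chr9:92542223-92608428), the telopeptide lysyl hydroxylase, was at 553, 539 and 651 CPM in the control and at 315, 309 and 344 CPM with miR-322/-503. Control replicate 3 was the highest library, and the groups did not overlap. The fall was -0.85 ± 0.09 (log2, SE; adjusted p = 0.000368 from edgeR), against the chromosome 9 median of -0.27. Plod2 varied most among the control libraries, with a coefficient of variation of 10.5%, against 1.10% for P4ha1.

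Plod3 (ENSMUSG00000004846, chr5:136987019-136996648), which also transfers galactose and glucose to hydroxylysine, was at 155, 139 and 144 CPM in the control and at 140, 137 and 148 CPM with miR-322/-503. The groups overlapped. The difference on the log2 scale was -0.04 (unadjusted 95% interval -0.19 to 0.11; adjusted p = 0.684 from edgeR), and 0.0021 without control replicate 1. A fall of the size seen in Plod1 or Plod2 lies outside this interval. The 1182 tested genes of chromosome 5, where Plod3 lies, had a median of 0.17. Plod3 shares 529 of its 4519 exon bases with Znhit1 on the opposite strand (2588 to 3262 counts), and Plod2 346 of 5392 with Gm38391 (100 to 193 counts).

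P4ha1 (ENSMUSG00000019916, chr10:59323296-59373304), the most abundant alpha subunit in these cells, was at 522, 523 and 533 CPM in the control and at 470, 453 and 487 CPM with miR-322/-503. The groups did not overlap, which was the case in the lower direction for 23.5% of all tested genes, but the difference was small. It came to -0.16 on the log2 scale (unadjusted 95% interval -0.29 to -0.04; adjusted p = 0.057 from edgeR).

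P4ha2 (ENSMUSG00000018906, chr11:54100095-54131665), an alternative alpha subunit, was at 176, 167 and 161 CPM in the control and at 205, 199 and 174 CPM with miR-322/-503. Replicate 3 of the miR-322/-503 group lay within the control range. The difference was 0.20 on the log2 scale (unadjusted 95% interval 0.02 to 0.38; adjusted p = 0.0962 from edgeR). Without that library it was 0.27 and passed (adjusted p = 0.0412 from edgeR).

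P4ha3, a less abundant alpha subunit outside the 10 genes, was at 50.81, 55.02 and 53.90 CPM in the control and at 18.8, 18.6 and 18.7 CPM with miR-322/-503. It fell by 1.51 on the log2 scale (SE 0.07; adjusted p = 6.34e-06 from edgeR). P4hb, the shared beta subunit, was at 1784, 1677 and 1714 CPM against 1275, 1310 and 1220 CPM, or -0.44 on the log2 scale (adjusted p = 0.000603 from edgeR).

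Levels of different genes were compared in TPM, a unit scaled by transcript length and library total. In the control, the order from high to low was Lox (829 ± 73.1 TPM), Plod2 (313 ± 31.8), P4ha1 (269 ± 4.98), Plod1 (183 ± 10.9), P4ha2 (155 ± 12.8), Loxl1 (129 ± 6.95), Plod3 (89.3 ± 6.02), Loxl3 (65.1 ± 0.989), Loxl4 (34.7 ± 0.585) and Loxl2 (22.9 ± 1.87 TPM, SD, n = 3). No neighbours in this order overlapped in their library values. With miR-322/-503, Lox was still highest at 320 ± 15.3 TPM, but P4ha1 (242 ± 8.85) and P4ha2 (173 ± 19.5) stood above Plod2 (171 ± 3.32 TPM). The library values of P4ha2 and Plod2 overlapped there, as did those of Plod1 (86.0 ± 7.45) and Plod3 (85.5 ± 0.882 TPM). Loxl4, at 12.4 ± 1.27 TPM, had moved under Loxl2, at 15.1 ± 0.683 TPM.

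The make-up of each family was given as the share of its summed TPM, with P4HA summed over P4ha1 and P4ha2 only. Lox held 76.8%, 75.0% and 78.2% of the LOX family in the control and 70.5%, 70.2% and 71.9% with miR-322/-503. Lox thus remained the main transcript of the family at a lower share. Loxl3 went from 6.04% ± 0.488 to 8.63% ± 0.119 and Loxl1 from 11.95% ± 1.02 to 14.5% ± 0.987 (SD, n = 3). In the PLOD family, Plod3 held 16.2%, 15.4% and 14.3% in the control and 24.9%, 24.7% and 25.4% with miR-322/-503, a difference of 9.71 percentage points. Plod2 held the largest part in all 6 libraries, at 53.5% ± 3.12 and 49.9% ± 1.51, and the difference of -3.56 points was -1.84 without control replicate 3. For the 5 LOX genes, Plod1 and Plod3 the groups did not overlap (exact two-sided permutation test, p = 0.10, the smallest value 3 against 3 libraries can give, 0.143 adjusted over 10 shares), so that none of these shares could pass a threshold of 0.05.

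**Figure D3:**
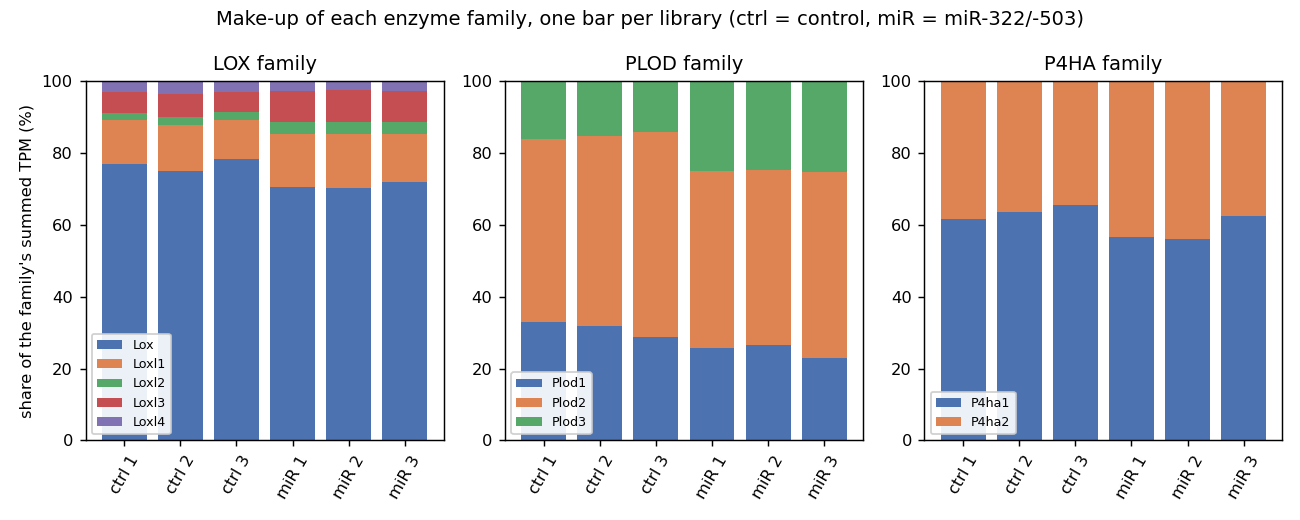
Share of each gene in the summed TPM of its family, in percent, with 1 bar per library. The P4HA panel leaves out P4ha3. The Lox part (blue, LOX panel) is smaller in the miR-322/-503 libraries, between 70.2% and 71.9%, and the Plod3 part (green, PLOD panel) is larger, between 24.7% and 25.4%.

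The enzymes were next set against their substrates, the fibrillar collagens. The summed TPM of the 5 LOX genes was 1111, 997 and 1135 in the control and 479, 446 and 431 with miR-322/-503, which left 41.8% of the control mean. For the 3 PLOD genes 58.5% was left, and for 8 fibrillar collagen genes above 1 TPM in every library (Col1a1, Col1a2, Col3a1, Col5a1, Col5a2, Col5a3, Col11a2 and Col27a1) the ratio to the control was 0.598. Per 100 TPM of these collagens, LOX transcripts therefore went from 13.6 ± 0.668 to 9.54 ± 0.496 TPM and PLOD transcripts from 7.38 ± 0.282 to 7.23 ± 0.266 TPM (SD, n = 3). The summed TPM of the alpha subunits P4ha1 to P4ha3 went from 478 ± 15.2 to 434 ± 15.2, a ratio of 0.908, nearer to 1 than that of the collagens. Per 100 TPM of collagen they therefore went from 6.03 ± 0.285 to 9.16 ± 0.325 TPM. In the LOX and P4HA ratios the groups did not overlap (exact two-sided permutation test, p = 0.10, the smallest possible, 0.113 adjusted over 9 ratios), and in the PLOD ratio they did (p = 0.50 in the same exact test). These ratios were chosen after the values had been seen.

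**Figure D4:**
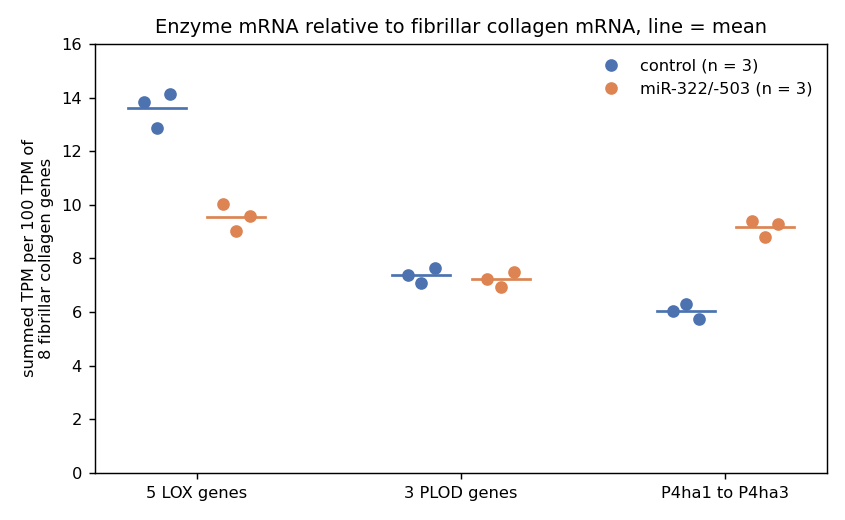
Summed TPM of the LOX genes, the PLOD genes and P4ha1 to P4ha3 per 100 TPM of 8 fibrillar collagen genes, with 1 point per library and a line at each group mean. The LOX points fall from about 13.6 to 9.54, the PLOD points overlap, and the P4HA points lie higher with miR-322/-503 (9.16 against 6.03).

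Of 11 tested genes for fibrillar collagens and elastin, 8 were lower and 2 were higher in edgeR, where 15.5% and 13.2% of all tested genes were, so that the count of higher genes was near the background. The list had a median log2 fold change of -1.04, whether Eln was set to its bound or not. Col1a1 rose from 1835 ± 70.4 to 2652 ± 125 CPM (log2 fold change 0.53, adjusted p = 0.000323), while Col1a2 fell from 5092 ± 58.8 to 2226 ± 50.1 CPM (-1.19, adjusted p = 2.33e-06 by edgeR). Their ratio in TPM was 0.298, 0.307 and 0.326 in the control and 1.004, 1.061 and 0.963 with miR-322/-503. Col3a1 fell with a log2 fold change of -0.74 and Col11a1 with -3.66, and Col24a1 rose with 2.47. Elastin (Eln), a major LOX substrate, was at 2.22, 3.49 and 3.20 CPM in the control and had no counts in any miR-322/-503 library, at least 20.0-fold lower when these libraries are set to a floor of 12 estimated counts (3 read pairs) each.

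The other enzymes and chaperones of collagen modification and folding were lower for the most part. Of 13 genes, 12 were tested, 10 were lower and 0 were higher by edgeR, against 15.5% and 13.2% of all tested genes. At an unadjusted p-value under 0.05 and with DESeq2 and limma, 10 were also lower and 0 higher. For these the shares of all tested genes were not counted. The median log2 fold change was -0.68. Besides P4ha3, the largest falls were those of the prolyl 3-hydroxylase genes P3h3 (30.9 ± 0.590 to 14.1 ± 0.0795 CPM, log2 fold change -1.13) and P3h1 (148 ± 7.63 to 80.4 ± 0.408 CPM, -0.88). Fkbp10, a collagen chaperone that acts with Plod2, had a log2 fold change of -0.64 and Serpinh1, the collagen chaperone Hsp47, of -0.39. Colgalt1, which adds galactose to hydroxylysine, was at 186, 184 and 286 CPM in the control and at 132, 136 and 129 CPM with miR-322/-503. Control replicate 3 stood apart, and without it the log2 fold change went from -0.73 to -0.49 (adjusted p = 0.00209 from edgeR). Without miR-322/-503 replicate 1 or replicate 3, Colgalt1 no longer passed (adjusted p up to 0.0536).

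Of 6 tested genes of procollagen processing, 4 were lower and 1 was higher, against 15.5% and 13.2% of all tested genes, so that the count of higher genes was near that background. The list had a median log2 fold change of -0.57. Bmp1, the protease that cleaves the procollagen C-propeptide and activates the Lox proenzyme, was at 321, 314 and 310 CPM in the control and at 315.3, 322.3 and 300.5 CPM with miR-322/-503 (-0.01 on the log2 scale, unadjusted 95% interval -0.14 to 0.12; adjusted p = 0.911 from edgeR). Its relative Tll1 fell from 4.06 ± 1.31 to 0.387 ± 0.0700 CPM (-3.38 on the log2 scale). Of the procollagen N-proteinases, Adamts2 fell with a log2 fold change of -0.83 and Adamts14 rose with 1.04, from 32.0 ± 1.79 to 66.0 ± 6.47 CPM.

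Among 9 genes for copper supply and for extracellular partners of the lysyl oxidases, 6 were lower and 1 was higher (15.5% and 13.2% of all tested genes), the latter near the background, and the median log2 fold change was -0.28. The largest falls were those of matrix partners, although Fn1, another of them, had a log2 fold change of only -0.35 (adjusted p = 0.000318 from edgeR). Fmod, a small proteoglycan that binds collagen and Lox, had a log2 fold change of -4.50, Postn, a scaffold for Bmp1 and Lox, of -2.96, and Fbln5, which tethers Loxl1 to elastic fibres, of -2.61. The gene called higher was Atp7a, the copper pump that loads secreted cuproenzymes, which went from 40.8 ± 2.67 to 51.3 ± 3.46 CPM (0.33 on the log2 scale; adjusted p = 0.0171 from edgeR). Its adjusted p rose to 0.0648 at most when 1 library was left out, and it lost the call without control replicate 1, control replicate 2, miR-322/-503 replicate 1 or miR-322/-503 replicate 3. The calls of Slc31a1 (-0.24), a copper importer, and Efemp2 (-0.28), a fibulin that binds Lox, were each lost in 5 of the 6 fits without 1 library.

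**Figure D5:**
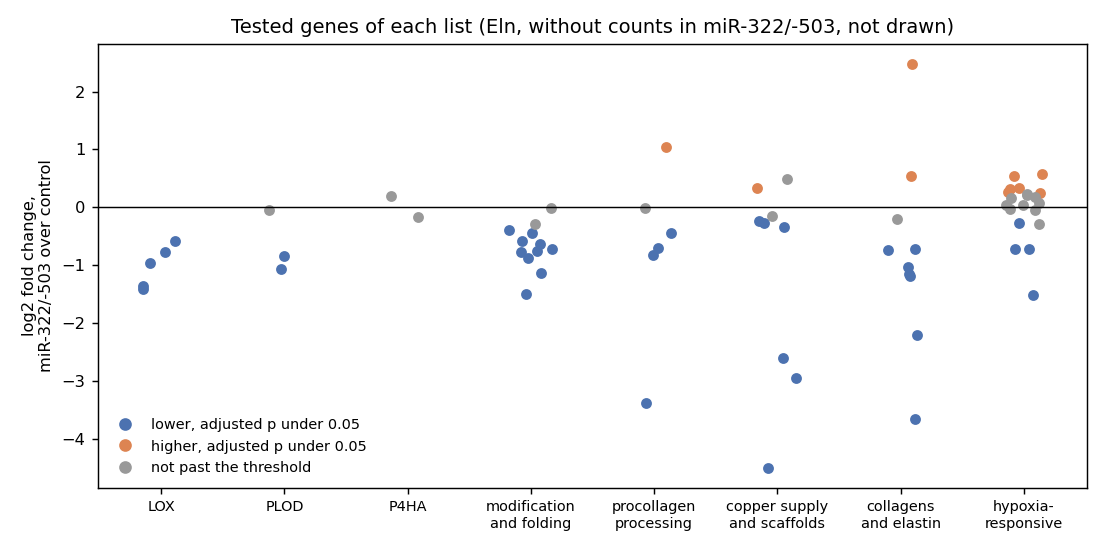
Log2 fold change of each tested gene by list, miR-322/-503 over control, from edgeR. Blue points were lower and orange points higher at an adjusted p-value under 0.05, and grey points did not pass, while Eln is not drawn. All 5 LOX points are below 0, 10 of 12 modification and folding genes were lower (15.5% of all tested genes), and the 20 hypoxia-responsive genes lie on both sides of 0.

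Several enzyme genes, among them P4ha1, P4ha2, Plod1, Plod2, Lox and Loxl2, are known to be induced by hypoxia, so 20 other hypoxia-responsive genes were followed. With edgeR 4 were lower, 6 were higher and 10 did not pass, where 15.5% of all tested genes were lower and 13.2% higher, so that the count of lower genes was near the background. The median log2 fold change of the list was 0.12. By limma, on log2(TPM + 1) or log2(TPM + 0.1), 4 were lower and 2 were higher. Without control replicate 1 or miR-322/-503 replicate 1, 3 were higher by edgeR and 4 lower. The shares of all tested genes in these alternative fits were not counted. Car9, a carbonic anhydrase, fell from 48.9 ± 1.63 to 17.1 ± 0.656 CPM (log2 fold change -1.52), and Adm and Car12 each had a log2 fold change of -0.72. Hk2 and Egln3 rose, with 0.57 and 0.53. Of the other genes called, Pgk1, Bnip3 and Egln1 (0.33, 0.27 and 0.24) lost the call in 4 of the 6 fits without 1 library, and Ndrg1 (-0.28) without miR-322/-503 replicate 1.

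Promoters of 5 of the 10 genes (Loxl4, Plod1, Plod3, P4ha1 and P4ha2) were found in the RefSeq table (GRCm38.p6, 250 bases before to 50 bases after the start site). They were searched on both strands for ACGTG and GCGTG, the forms of the hypoxia response element core. All 5 promoters held at least 1 of these forms, as did 43.8% of all 32851 promoters of this length. GCGTG occurred in each of the 5 and in 32.4% of all promoters. ACGTG occurred in P4ha1, P4ha2 and Plod3 and in 19.6% of all promoters. P4ha2 held ACGTG at 2 positions, of which the upstream one is shown as an example of this form. The windows give the ACGTG match in capitals, read along the gene. That of P4ha1 is on the opposite strand and appears as CACGT. The matches lie at chr10:59323280-59323284, chr11:54100846-54100850 and chr5:136986965-136986969, each by the RefSeq start of a plus-strand transcript.
P4ha1: tgacagagcgCACGTagcgagggct
P4ha2: tgcatcgcatACGTGcagcgcgtgg
Plod3: tgaagtcattACGTGatgttccctt
A match of these letters is a description of the sequence only, and with 5 promoters no relation to the fold change was tested.

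Markers of cell state and cell type also differed between the groups, and their counts are to be read against the 13.2% of all tested genes that were higher and the 15.5% that were lower. Of 10 myotube markers, 5 were higher, 1, Myog, was lower and 4 did not pass, with summed levels of 3423 to 3659 CPM in the control and 3902 to 4132 CPM with miR-322/-503. Of 5 myoblast markers, 4 were higher (795 to 932 against 1302 to 1379 CPM summed), and Pax7 did not exceed 12 estimated counts in any library. Of 6 fibroblast markers, 4 were tested and all 4 were lower (683 to 764 against 483 to 530 CPM summed), while Tcf21 had no counts in any library and Thy1 no more than 6. The call of Dcn (-0.22 on the log2 scale) was lost in 5 of the 6 fits without 1 library, that of Mymx (0.37) in 4 and that of Myod1 in 3. Of the myotube markers that did not pass, Myh8 (-1.09) and Mymk (-0.41) had every miR-322/-503 library under every control library. The same was true of 23.5% of all tested genes. Among myotube markers the largest called changes on the log2 scale were 1.04, 0.87 and 0.86 for the sarcomere and muscle enzyme genes Tnnt3, Ckm and Actn2. Among myoblast markers they were 0.73, 0.63 and 0.37 for Cdh15, Itga7 and Myod1, and among fibroblast markers -3.19, -0.81 and -0.74 for Lum, Pdpn and Pdgfra. The part of these markers and of the chromosome medians in the fall of the LOX and PLOD genes was not tested.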

How the data were processed

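Both groups and their replicate numbers were taken from the sample titles. According to the study's methods and the submitters' processing notes, the authors trimmed the reads (Trim Galore), mapped them with HISAT2 to the GRCm38 genome, and used StringTie for the read count table. Versions, gene annotation and strand setting are not given in the sources used here. The deposited table holds estimated counts per gene as whole numbers, and the deposited table of each library holds coverage (a signal per base, not used), FPKM (not used) and TPM. No column was left out of the count table. The most frequent count of low genes was 4 in every library, so a read pair seemed to enter as about 4 counts. Floors cover counting error only. Replicate pairs differed by a chi-square per degree of freedom of 13.5 or more on counts divided by 4, so none was a copy.

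Estimated counts were tested as deposited with edgeR 4.0.16 in R 4.3.3 (filterByExpr, TMM with factors of 0.977 to 1.03, glmQLFit, glmQLFTest) over 18140 genes, with Benjamini-Hochberg adjustment over all of them. CPM values are scaled to TMM-normalized library size, and standard errors are the log2 fold change divided by the square root of F. TPM of identifiers listed more than once in a library table was summed. The exact permutation test was used for shares and ratios. Alternatives were DESeq2 1.42.0, limma 3.58.1 on log2(TPM + 1) and log2(TPM + 0.1) for genes with a mean of at least 0.1 TPM, other size factors and filters, counts divided by 4, a replicate block and leaving out each library. The fits were tested on simulated counts.

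The 10 genes, the lists and the tests were chosen with earlier results of these data known, and seed matches, promoter matches and ratios to collagen after the values were seen. Named beside the 10 genes were, from each list, the 3 called genes with the largest change and P4hb, Serpinh1, Fkbp10, Colgalt1, Bmp1, Col1a1, Col1a2 and Col3a1. Other genes named were chosen after their values were seen. Replicates are separate libraries of 1 stable line per group, so p-values measure the spread between libraries of a line.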

Additional observations from a re-analysis of the deposited data

How the results depend on the processing

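The 7 falls kept their direction and their side of the threshold under all 14 alternatives, with log2 fold changes of -1.49 to -1.34 for Loxl4, -1.43 to -1.31 for Lox and -0.63 to -0.52 for Loxl2. Every share kept its direction, but the Loxl4 share moved from -0.490 to -0.320 points when counts per exon length were used in place of TPM. Leaving out 1 library gave 0 to 1 enzyme genes higher, 0 to 1 copper supply and scaffold genes higher, and 3 to 5 hypoxia-responsive genes higher. Without control replicate 1, Plod3 changed sign to 0.0021 (adjusted p = 0.987 in edgeR, 0.499 to 0.987 over its alternatives), and leaving out each library gave -0.0791 to 0.0021. With limma on log2(TPM + 1) and on log2(TPM + 0.1), 2 hypoxia-responsive genes were higher in place of 6, and the cause was not tested. Depth limits the statements on Mir322 and Mir503, which had few counts, and on Eln, which had none in a group.

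With the replicate block, 8 enzyme genes were lower and 1 was higher. P4ha1 (-0.16, adjusted p = 0.0317 in edgeR) and P4ha2 (0.20, adjusted p = 0.0338 in edgeR) passed there, against 0.0317 to 0.151 and 0.0338 to 0.343 over their alternatives. The deviations of same-numbered libraries had correlations of 0.131, 0.0687 and 0.0451. Values this low do not show that the numbers pair the libraries, and they cannot exclude it. Every library correlated best with the other group's library of its own number, as a hint from the data only. The block changed no other call of an enzyme gene.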
